A study of Mus musculus with 11 samples.

Results

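Heart RNA was examined for 36 genes that mark endothelial cells, the cells that line blood vessels, in mice labelled as lacking the fatty acid transporter gene Cd36 in different cells. The genes were listed by name: receptors of the vessel wall with Tek among them, junction and surface proteins, secreted proteins and an enzyme, transcription factors and a Notch pair. All 36 were found by symbol among the 23420 rows of the deposited expression table. No member passed limma's test against Control in any knockout group. Between the endothelial and the cardiomyocyte knockout, 15 of the 36 were higher in the endothelial knockout, by 1.27-fold (Tek) to 2.0-fold (Sox7) as a ratio of group means, and 1 (Cd34) was lower, where 8.72% of all genes tested were higher and 10.4% lower. With each library scaled to its total, 7 members were higher and 3 lower, beside 640 higher and 2088 lower of the 12976 genes tested.

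The 11 libraries were made from ribosome-depleted, strand-specific RNA of whole mouse heart, from 400 ng of total RNA each. The label of every library, Control included, names the floxed Cd36 strain. Labels give 2 Control libraries with no Cre stated, 3 libraries with Tie2-cre (labelled EC cd36 KO, here EC KO), 3 with MHC-cre (labelled MHC cd36 KO, here CM KO) and 3 labelled Total cd36 ko (here Total KO). The making of the total knockout, the age and sex of the mice and the treatment, if any, were not given in the sources used here. As background, Tie2-cre is driven by the promoter of Tek itself (Tek is also called Tie2), which is active in endothelial cells and in part of the blood lineage, and MHC-cre by a myosin heavy chain promoter of heart muscle. Nothing in the labels says that the libraries of a group come from separate animals, so each p-value reflects how much the libraries spread, which may be technical.

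Endothelial identity rests on transcription factors of the ETS, SOX F and other classes that act on the promoters and enhancers of receptor and junction genes. The vascular endothelial growth factor (VEGF) receptors carry the main growth signal, and the angiopoietin receptor Tek with its partner Tie1 keeps vessels quiet and tight. The heart's endothelium is mostly capillary, and its cells pass fatty acids from the blood to heart muscle, which uses them as its main fuel.

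The promoters below are those of Tek, of its partner Tie1, and of Robo4, Flt1 and Cd34, genes on which the comparisons turn. They come from RefSeq (GRCm38.p6) and run 5′ to 3′ from 250 bases before to 50 bases after the annotated start. Capitals mark the ETS letters CAGGAA or CCGGAA on either strand.
Tek (chr4:94739039-94739338, plus strand): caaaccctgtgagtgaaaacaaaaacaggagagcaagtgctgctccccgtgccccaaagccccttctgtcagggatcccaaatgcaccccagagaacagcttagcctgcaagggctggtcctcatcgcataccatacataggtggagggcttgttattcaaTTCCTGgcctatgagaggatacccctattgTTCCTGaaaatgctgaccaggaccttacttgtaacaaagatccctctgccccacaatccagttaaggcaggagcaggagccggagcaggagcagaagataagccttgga
Tie1 (chr4:118489800-118490099, minus strand): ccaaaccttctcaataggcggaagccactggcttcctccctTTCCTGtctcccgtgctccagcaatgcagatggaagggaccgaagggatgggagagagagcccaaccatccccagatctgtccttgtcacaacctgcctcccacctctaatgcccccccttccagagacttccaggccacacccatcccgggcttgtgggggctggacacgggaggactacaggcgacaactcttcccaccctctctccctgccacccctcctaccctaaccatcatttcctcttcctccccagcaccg
Robo4 (chr9:37401722-37402021, plus strand): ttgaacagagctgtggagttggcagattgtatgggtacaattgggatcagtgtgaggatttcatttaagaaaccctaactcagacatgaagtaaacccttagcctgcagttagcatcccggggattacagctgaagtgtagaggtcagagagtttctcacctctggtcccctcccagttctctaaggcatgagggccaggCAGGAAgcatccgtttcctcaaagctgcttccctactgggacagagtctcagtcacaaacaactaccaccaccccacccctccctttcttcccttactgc
Flt1 (chr5:147725962-147726261, minus strand): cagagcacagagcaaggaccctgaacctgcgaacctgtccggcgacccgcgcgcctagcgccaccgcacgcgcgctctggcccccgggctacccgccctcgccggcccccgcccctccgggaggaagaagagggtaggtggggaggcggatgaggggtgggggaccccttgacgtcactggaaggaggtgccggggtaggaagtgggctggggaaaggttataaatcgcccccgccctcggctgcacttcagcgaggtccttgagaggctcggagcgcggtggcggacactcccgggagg
Cd34 (chr1:194938571-194938870, plus strand): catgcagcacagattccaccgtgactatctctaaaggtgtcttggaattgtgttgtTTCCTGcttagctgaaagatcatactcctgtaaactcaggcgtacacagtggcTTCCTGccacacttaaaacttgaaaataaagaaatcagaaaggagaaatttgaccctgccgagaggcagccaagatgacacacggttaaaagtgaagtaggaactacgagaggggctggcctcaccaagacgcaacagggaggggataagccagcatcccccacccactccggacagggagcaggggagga

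The windows of Tek and Cd34 held 2 matches each, those of Tie1 and Robo4 held 1 each, and that of Flt1 held none. The table had promoters for 19 of the 36 members, 25 windows in all because some genes have several starts. ETS letters stood in 11 of these 25 (44%) and in 41.4% of all 32851 windows of the same length. The SOX letters ACAATG or ACAAAG stood in 5 of 25 (20%) against 28.6%, and the GATA letters AGATAA in 3 of 25 (12%) against 11.2%, both strands counted. No set of letters contains another. Cd34, which was highest in the cardiomyocyte knockout, and Tek, which was highest in the endothelial knockout, both held the ETS letters. A match describes letters in a window and not a bound site.

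Values are normalized read counts, each library's reads divided by 1 factor of the authors. Differences are on the log2(value + 1) scale with their SE from limma, fitted to all 11 libraries and adjusted by Benjamini-Hochberg over the 12976 genes whose mean reached 10, and a gene passed at an adjusted p under 0.05. All 36 members were tested, with means of 80.4 (Tal1) or more. Recovered reads ran from 2268403 (EC KO replicate 1) to 20105673 (CM KO replicate 2), and the other 9 libraries held 11157062 to 18258252. EC KO replicate 1 therefore has the largest counting error, and its Tal1 value rests on 7 reads.

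Cd36, the check of the labels, read 44529.6 and 35425 for Control, 30308, 27804 and 25758 for EC KO, 15792, 21610.2 and 21363 for CM KO, and 18847, 23452 and 21266 for Total KO. The Control libraries stood above all 9 knockout libraries, but no group was near 0: EC KO averaged 69.9% of Control, CM KO 49.0% and Total KO 53.0%. A read from outside the deleted exons checks nothing, and which exons were deleted was not given in the sources used here. The groups are named by their labels throughout. CM KO passed against Control (a log2 difference of -1.03 ± 0.17, limma adjusted p = 0.00863). EC KO (-0.51 ± 0.17, limma adjusted p = 0.298) and Total KO (-0.91 ± 0.17, limma adjusted p = 0.0809) did not.

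Some marker lists of other cells moved with the CM KO group. The summed level of 12 macrophage and leukocyte markers was 9289 to 17390 in CM KO and 4486 to 6611 in the other 8 libraries. For 10 fibroblast markers the sums were 29069 to 73529 in CM KO and 15160.3 to 19923 in the others, and for 10 cardiomyocyte markers 793965 to 1140700 against 1258680 to 1435120. CM KO replicate 1 had the highest sums for macrophage and fibroblast markers and the lowest for cardiomyocyte markers. For 12 pericyte and smooth muscle markers, the CM KO sums (18497 to 19686) overlapped those of Control (16494 and 19612) and EC KO (17912 to 19166). They lay above those of Total KO (15742 to 16442). The members' own sums were 42505 and 43617 for Control, 46923 to 51474 for EC KO, 37698 to 41649 for CM KO and 40688 to 41230 for Total KO. The part of this difference in cell markers in the results below was not tested. In bulk tissue, fewer endothelial cells and less RNA per endothelial cell cannot be told apart.

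**Figure D1:**
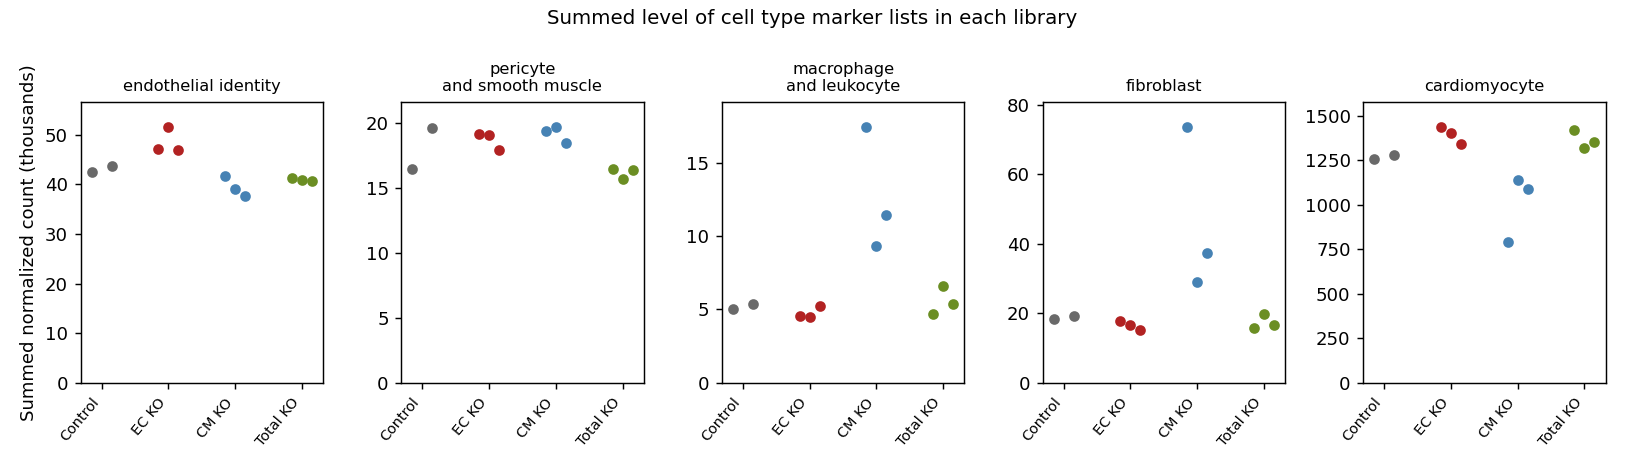
Summed normalized counts (linear axes from 0) of the endothelial members and of marker lists of other heart cells, 1 point per library, by group. The 3 CM KO libraries lie above all others for macrophage markers (9289 to 17390) and fibroblast markers (29069 to 73529), while the endothelial sums lie highest in EC KO (46923 to 51474).

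Genes of endothelial receptors, junctions, signalling and transcription were among those higher in EC KO than in CM KO. Of the 36 members, 15 were higher and 1 was lower by limma's test, where 19.1% of all genes tested were called in either direction (8.72% higher and 10.4% lower). At an unadjusted p under 0.05, 23 members passed, beside 34.2% of all genes. The median difference of the members was 0.36 and that of all genes was -0.00, and 28 of 36 members were above 0 against 49.7% of all genes. The mean of EC KO was the highest of the 4 groups in 23 members (63.9%, against 24.5% of all genes), and that of CM KO was the lowest in 22 (61.1%, against 33.8%). Ranges did not overlap with EC KO higher in 17 members, where 19.1% of all genes met this, and with EC KO lower in 2, where 19.7% did.

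The count depended on scaling and on single libraries. With each library scaled to its total instead, the median of all genes moved by -0.12 on the log2 scale, and 7 members were called higher and 3 lower, while the split over all genes went from 1131 higher and 1348 lower to 640 higher and 2088 lower. Without CM KO replicate 3, 9 members were called, and without EC KO replicate 2, 12 were. Over all genes, 1744 and 1614 were called in these fits, against 2479 in the reported fit. Robo4, Ptprb, Pecam1, Esam, Ly6c1 and Sox7 (higher) and Cd34 (lower) passed under all 22 alternatives run. Cd93 passed in all but the scaling to library totals.

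**Figure D2:**
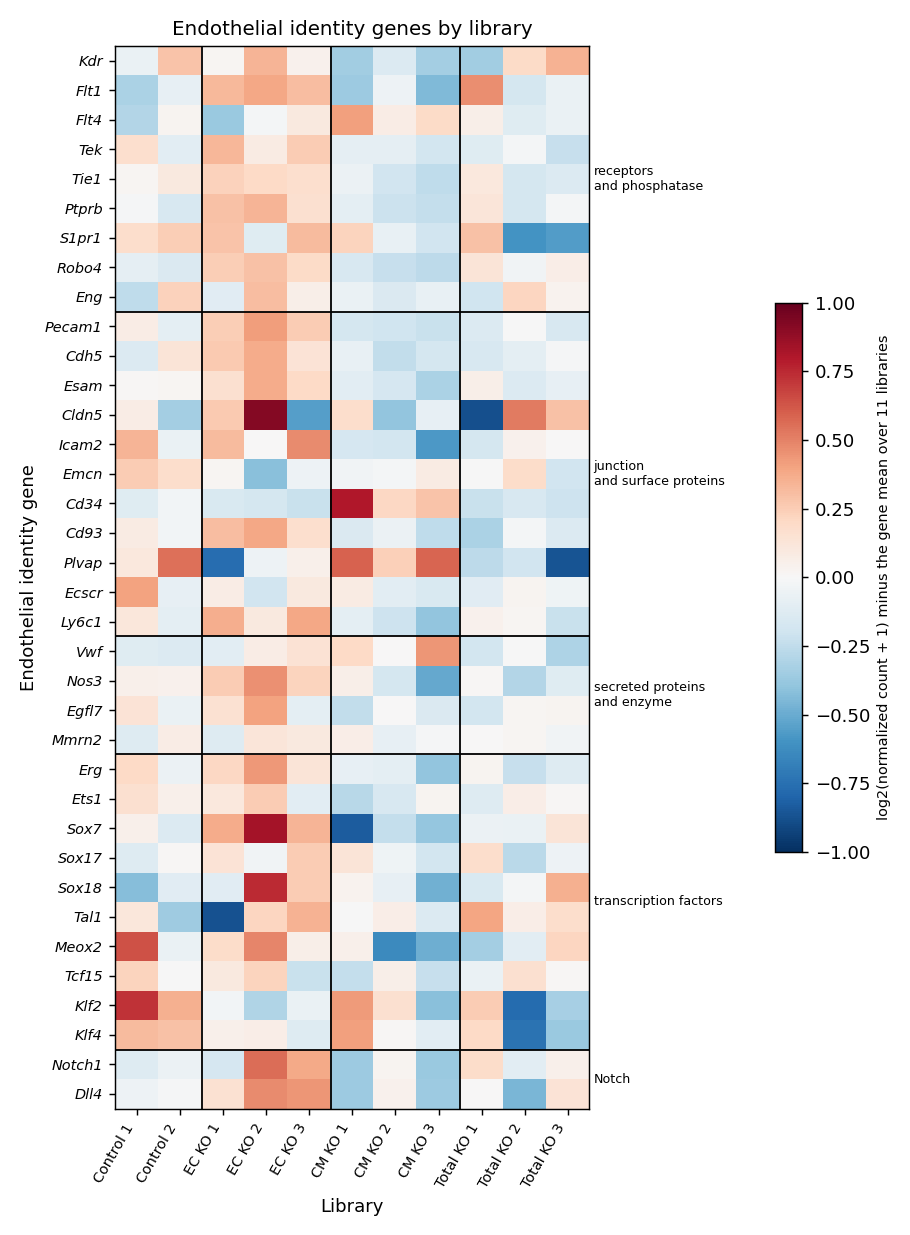
Heat map of the 36 endothelial genes (rows, grouped by role) in the 11 libraries (columns, by group), coloured by the log2 difference from each gene's mean over libraries. The median of the members in a library was 0.15 to 0.28 in EC KO and -0.23 to -0.07 in CM KO, with Control (-0.03 and 0.06) and Total KO (-0.05 to -0.03) between them.

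Tek encodes the receptor tyrosine kinase for angiopoietins and lies at chr4:94739289-94874976 (GRCm38, plus strand). It read 1265 and 1042 for Control, 1414, 1189 and 1342 for EC KO, 1055, 1054 and 990.4 for CM KO, and 1034, 1110.1 and 957 for Total KO. All 3 EC KO libraries stood above all 3 CM KO and all 3 Total KO libraries, while Control replicate 1 lay inside the EC KO range. The group means were 1153 ± 158 (SD, n = 2) for Control and, with n = 3 each, 1315 ± 115 for EC KO, 1033 ± 37.0 for CM KO and 1034 ± 76.7 for Total KO. EC KO exceeded CM KO by 0.34 ± 0.10 (limma adjusted p = 0.0321). Tek did not pass against Control in EC KO (0.19 ± 0.11, limma adjusted p = 0.589), in CM KO (-0.15 ± 0.11, limma adjusted p = 0.491) or in Total KO (-0.15 ± 0.11, limma adjusted p = 0.811). The call between EC KO and CM KO was lost without either EC KO replicate 1 (0.29) or 3 (0.33), without any 1 of the CM KO replicates (0.36, 0.36 and 0.31 without replicates 1, 2 and 3), without the first library of each knockout group (0.31), and with library totals (0.22) or quantile normalization (0.30). In each of these the EC KO mean stayed the higher.

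Tie1, the orphan receptor that pairs with Tek at the membrane, lies on the minus strand of the same chromosome (chr4:118471191-118490061). Its counts were 2172 and 2283 for Control, 2508, 2457 and 2404 for EC KO, 2054, 1875 and 1789 for CM KO, and 2296, 1892 and 1943 for Total KO. The EC KO libraries were above every other library, Total KO replicate 1 included. EC KO exceeded CM KO by 0.37 ± 0.09 (limma adjusted p = 0.0160), a call lost without CM KO replicate 3 (0.32) and with library totals (0.25). Ptprb, the phosphatase that takes phosphate groups off Tek and VE-cadherin, read 2375 and 2133 for Control, 2918, 3028 and 2672 for EC KO, 2229, 2062 and 2026 for CM KO, and 2601, 2117 and 2352 for Total KO. Here too all 3 EC KO libraries were the highest of the 11, and the difference from CM KO was 0.45 ± 0.10 (limma adjusted p = 0.00789). Robo4, a guidance receptor of endothelial cells (chr9:37401897-37415115), read 1002 and 968 for Control, 1269, 1310.4 and 1224 for EC KO, 955, 909 and 889.8 for CM KO, and 1166, 1045 and 1119 for Total KO. Every EC KO library was above every Control library, and every Total KO library was above both Control libraries and all 3 of CM KO. The difference between EC KO and CM KO was 0.47 ± 0.08 (limma adjusted p = 0.00241).

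Among the VEGF receptors, Flt1 (VEGF receptor 1, which also binds VEGF as a decoy) was the only one that passed. Flt1 read 1391 and 1634 for Control, 2169, 2257 and 2145 for EC KO, 1343, 1671 and 1272 for CM KO, and 2392, 1534 and 1648 for Total KO. The EC KO libraries lay close together and above the Control and CM KO libraries, whereas Total KO replicate 1 was the highest of the 11 and the other 2 Total KO libraries lay near Control. EC KO exceeded CM KO by 0.63 ± 0.15 (limma adjusted p = 0.0146), lost without CM KO replicate 3 (0.55). Kdr (VEGF receptor 2, the main signalling receptor) read 2410.2 and 3073 for Control, 2556, 3181 and 2599 for EC KO, 1976, 2285 and 1994 for CM KO, and 1977, 2881 and 3199.8 for Total KO. The ranges of EC KO and CM KO did not overlap, but the difference of 0.41 ± 0.16 did not pass (limma adjusted p = 0.0976). Flt4, the receptor of lymphatic growth factors, had its highest mean in CM KO (442 ± 52.9 against 355 ± 58.0 in EC KO), a difference of -0.32 ± 0.14 that did not pass (limma adjusted p = 0.125). S1pr1, the sphingosine 1-phosphate receptor that tightens junctions, spread from 1316 to 2481, the lowest in Total KO replicate 2 and the highest in EC KO replicate 3. Eng, a co-receptor for bone morphogenetic proteins, ran from 3033 to 4486. In all, 5 of 9 receptors and phosphatase genes were called between EC KO and CM KO (Flt1, Tek, Tie1, Ptprb and Robo4), with a median of 0.37 over the 9. All 5 were higher in EC KO, where 8.72% of all genes were called higher and 19.1% in either direction.

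Junction and surface genes held 7 of the 16 calls between EC KO and CM KO, 6 higher and 1 lower of 11 genes, with a median of 0.42. Of all genes tested, 8.72% were called higher and 10.4% lower. Pecam1, the adhesion molecule CD31 (chr11:106654217-106750628), read 3583 and 3182 for Control, 4048, 4554 and 4051 for EC KO, 3022, 2959 and 2919 for CM KO, and 3101, 3404 and 3051 for Total KO. No library outside EC KO reached the lowest EC KO value. The difference between EC KO and CM KO was 0.51 ± 0.09 (limma adjusted p = 0.00255). Cdh5, VE-cadherin of the adherens junction, read 3654 and 4379 for Control, 4816, 5189.6 and 4399 for EC KO, 3812, 3379 and 3547 for CM KO, and 3585, 3738 and 3977 for Total KO. The 3 EC KO libraries were the highest of the 11, with EC KO replicate 3 just above Control replicate 2, and the difference of 0.42 ± 0.10 passed (limma adjusted p = 0.0116) but not without EC KO replicate 2 (0.36), nor with library totals (0.30) or quantile normalization (0.30). Esam, an adhesion molecule of endothelial junctions, read 1361 and 1370.3 for Control, 1511, 1751 and 1549.9 for EC KO, 1255, 1206 and 1086 for CM KO, and 1410.5, 1228 and 1279 for Total KO. Every EC KO library exceeded all the others, and CM KO held the 2 lowest values. Its difference was 0.44 ± 0.09 (limma adjusted p = 0.00721).

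Cd93, a C-type lectin receptor of endothelial cells, read 1638 and 1516 for Control, 1915, 2019 and 1732 for EC KO, 1397, 1478 and 1297 for CM KO, and 1239, 1526 and 1401 for Total KO. EC KO was above all the others, and CM KO and Total KO overlapped. The difference between EC KO and CM KO was 0.44 ± 0.10 (limma adjusted p = 0.00979). Icam2, an adhesion molecule for leukocytes, read 435 and 329 for Control, 429, 345 and 477 for EC KO, 307, 303 and 231 for CM KO, and 306, 355 and 345 for Total KO. CM KO held the 2 lowest values and did not overlap EC KO, with a difference of 0.57 ± 0.16 (limma adjusted p = 0.0241) that was lost without CM KO replicate 3 (0.44) and likewise without EC KO replicate 1 (0.55) or 3 (0.47). It was also lost with library totals (0.45) and without the first library of each knockout group (0.62). Ly6c1, a surface protein of capillaries, read 2154 and 1864 for Control, 2562, 2139 and 2604 for EC KO, 1863, 1732 and 1517 for CM KO, and 2055, 2022 and 1714 for Total KO. EC KO replicate 2 was below Control replicate 1, while CM KO lay below EC KO throughout (0.51 ± 0.11, limma adjusted p = 0.00948). Ly6c1 has a near-identical neighbour, Ly6c2, and how reads were split between them was not given in the sources used here.

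Cd34 was the exception in direction. This surface sialomucin is found on capillary endothelium and on fibroblast-like and progenitor cells, and it lies at chr1:194938819-194961279, where the antisense Gm16897 covers 2.03% of its exonic bases. It read 1611 and 1717 for Control, 1571, 1549 and 1499.5 for EC KO, 3041, 2013 and 2127 for CM KO, and 1496, 1564 and 1516 for Total KO. Every CM KO library stood above all the others, and the highest was replicate 1, the library with the highest sums of fibroblast and macrophage markers. EC KO and Total KO lay together just below Control. The difference between EC KO and CM KO was -0.61 ± 0.13 (limma adjusted p = 0.00705) and that between CM KO and Control was 0.50 ± 0.14, which did not pass (limma adjusted p = 0.0599). Plvap, the diaphragm protein of fenestrated and endocardial cells, had the same order. It read 145 and 198 for Control, 78.5, 129.6 and 139 for EC KO, 203, 159 and 201 for CM KO, and 112, 118 and 73.4 for Total KO. The CM KO values were above all 3 EC KO values and above all 3 Total KO values, and the difference between EC KO and CM KO did not pass (-0.73 ± 0.24, limma adjusted p = 0.0512). Cldn5 (the claudin of tight junctions), Emcn (endomucin) and Ecscr gave differences of 0.31, -0.16 and 0.05 that did not pass. Cldn5 ranged from 413 to 1147 within EC KO alone.

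**Figure D3:**
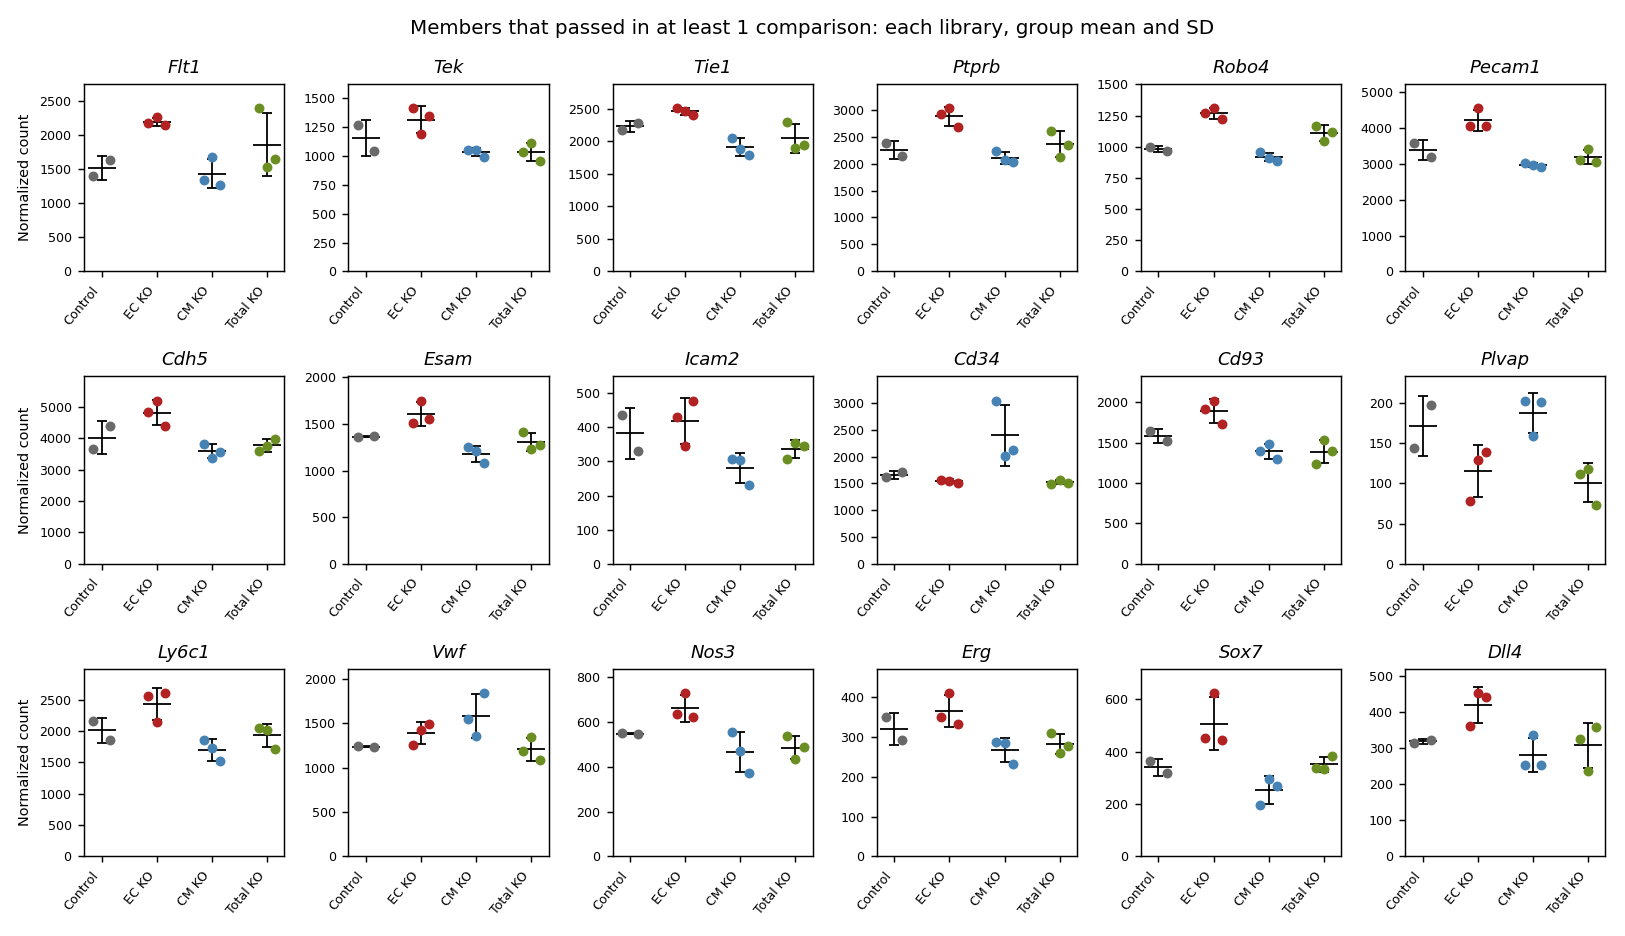
Normalized counts (linear axes from 0) of the members that passed in at least 1 comparison, 1 panel per gene, with a point for each library, and the mean and SD of each group (n = 2 in Control, 3 in each knockout). Most panels have EC KO highest and CM KO lowest. Cd34, Plvap and Vwf have CM KO highest.

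Among the 4 genes of secreted proteins and the enzyme, Nos3 passed between EC KO and CM KO, beside 19.1% of all genes. Nos3 encodes the endothelial nitric oxide synthase, which relaxes vessels, and read 549.5 and 546 for Control, 634, 729 and 621 for EC KO, 555, 471 and 373 for CM KO, and 536, 433 and 487 for Total KO. The EC KO libraries were above all the others, and the difference from CM KO was 0.52 ± 0.14 (limma adjusted p = 0.0208), lost without EC KO replicate 2 (0.45) or CM KO replicate 3 (0.37) and with library totals (0.40). The antisense gene Gm15587 covers 25.2% of the exonic bases of Nos3 and Atg9b 7.12%, and the strand setting of the counting was not given in the sources used here. Vwf, the clotting factor stored in endothelial granules, read 1244 and 1230.2 for Control, 1257, 1425 and 1495 for EC KO, 1551, 1354 and 1838 for CM KO, and 1188, 1346 and 1090.2 for Total KO. CM KO replicate 3 was the highest, and CM KO and EC KO overlapped, with a difference of -0.18 ± 0.12 (limma adjusted p = 0.320). Egfl7 and Mmrn2, matrix proteins of the vessel wall, differed by 0.28 and 0.04 and did not pass. The median over these 4 genes was 0.16.

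Of the transcription factors, 2 of 10 passed between EC KO and CM KO, Sox7 and Erg, a share near the 19.1% of all genes called in either direction. Both were higher in EC KO, where 8.72% of all genes were called higher. The median over the 10 was 0.20. Sox7, a SOX F factor of early endothelium (chr14:63943673-63950732), read 364 and 318 for Control, 453, 624 and 444 for EC KO, 196, 297 and 268 for CM KO, and 337, 334 and 383 for Total KO. EC KO was above all the others, and CM KO lay below all the others. The difference of 1.0 ± 0.17 (limma adjusted p = 0.00223) had the lowest adjusted p among the members. The related Sox17 and Sox18 differed by 0.15 and 0.47 and did not pass. Sox18 ran from 549.8 to 998 within EC KO. Erg, the ETS factor that maintains junction genes, read 349 and 292 for Control, 350.4, 409.7 and 332 for EC KO, 286, 284 and 231 for CM KO, and 309, 258 and 278 for Total KO. EC KO did not overlap CM KO, and Control replicate 1 lay inside the EC KO range. Its difference of 0.45 ± 0.13 (limma adjusted p = 0.0310) was lost without CM KO replicate 3 (0.35) and likewise without EC KO replicate 1 (0.47) or 2 (0.36). It was also lost with library totals (0.32), in the fit to the 2 groups alone (0.45) and without the first library of each knockout group (0.52). Ets1, a broader ETS factor, differed by 0.22 and did not pass.

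Klf2 and Klf4, the factors induced by blood flow, were among the 8 members with their highest mean in Control. Klf2 read 895 and 693 for Control, 532, 439.9 and 517 for EC KO, 729.8, 606 and 406 for CM KO, and 645, 317 and 431 for Total KO. Control replicate 1 was the highest, followed by CM KO replicate 1 and Control replicate 2. Klf4 read 857 and 845 for Control, 713, 723 and 629 for EC KO, 914, 695 and 640.3 for CM KO, and 792, 413 and 531 for Total KO. Both genes, like S1pr1, had their highest means in Control and their lowest in Total KO. Neither Klf2 nor Klf4 passed in any comparison. Against Control, Total KO differed by -0.82 ± 0.27 for Klf2 (limma adjusted p = 0.393) and -0.61 ± 0.22 for Klf4 (limma adjusted p = 0.455). Meox2 and Tcf15, factors of heart capillaries linked to fatty acid uptake, differed between EC KO and CM KO by 0.60 ± 0.22 (limma adjusted p = 0.0755) and 0.17 ± 0.15 (limma adjusted p = 0.451). Meox2 read 347 and 213 for Control, 254, 314 and 232 for EC KO, 231, 143 and 159 for CM KO, and 176, 207 and 259 for Total KO, with no overlap of EC KO and CM KO. Tal1, a factor of blood and early endothelium, differed by -0.08.

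Both genes of the Notch pair had a higher mean in EC KO than in CM KO, and 1 passed, beside 19.1% of all genes. Dll4, the Notch ligand of arterial and tip cells, read 315 and 324 for Control, 363, 453 and 444 for EC KO, 253, 336 and 254 for CM KO, and 327, 237 and 359.5 for Total KO. The EC KO libraries were above all the others, Total KO replicate 3 coming closest. Dll4 differed by 0.58 ± 0.16 (limma adjusted p = 0.0268), a call lost without EC KO replicate 2 (0.53) or 3 (0.54) and likewise without CM KO replicate 1 or 3 (0.52 each). It was also lost with library totals (0.46) and without the first library of each knockout group (0.62). An antisense transcript, Gm14207, covers 5.56% of its exonic bases. Notch1, its receptor, read 776 and 813 for Control, 755, 1247 and 1104 for EC KO, 658, 861 and 653 for CM KO, and 961, 788 and 876 for Total KO. EC KO replicate 2 and 3 were highest, EC KO replicate 1 lay in the CM KO range, and the difference of 0.50 ± 0.17 did not pass (limma adjusted p = 0.0561).

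Against Control, no member was called in EC KO, where limma called 0.316% of all genes. By unadjusted p under 0.05, 12 members passed, against 10.5% of all genes. edgeR called none and DESeq2 called 1, Robo4, beside 50 and 162 of all genes. The median over members was 0.15 and that over all genes -0.01. The members with the largest differences above Control were Sox18 (0.56 ± 0.23), Sox7 (0.56 ± 0.19) and Flt1 (0.54 ± 0.17), and those below were Klf2 (-0.67 ± 0.27) and Plvap (-0.59 ± 0.27). Ranges of EC KO did not overlap those of Control in 12 members with EC KO higher (12% of all genes met this) and in 5 with EC KO lower (13.2%). The lowest adjusted p was that of Robo4 (0.36 ± 0.09, limma adjusted p = 0.126).

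In CM KO against Control, limma called no member, beside 5.7% of all genes. By unadjusted p under 0.05, 7 members passed, beside 21% of all genes. The 5.7% was 3.29% higher and 2.4% lower. edgeR and DESeq2 each called 1, Cd34, beside 1007 and 1276 of the 12976 genes. Without CM KO replicate 2, limma called Cd34 (0.61), beside 999 of all genes. Over the members the median was -0.18 and over all genes -0.00, with 9 of 36 above 0. The largest differences were those of Meox2 (-0.64 ± 0.25) and Klf2 (-0.48 ± 0.27) below Control and Cd34 (0.50 ± 0.14) above it. Ranges did not overlap in 3 members with CM KO higher and in 12 with CM KO lower, while 18.3% of all genes met each. Control is shared by the comparisons, so these medians are not independent of those in EC KO.

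For Total KO against Control, limma called no member, beside 0.0848% of all genes (0.0617% higher). At an unadjusted p under 0.05, 4 members passed, beside 8.11% of all genes, and edgeR and DESeq2 called none. The median was -0.08, and that of all genes was 0.00. The members furthest below Control were Klf2, Plvap (-0.77 ± 0.27) and Klf4. Robo4 was the 1 member with Total KO above Control without overlap (12.3% of all genes met this), and 5 were below without overlap (12.8%): Cd34, Plvap, Nos3, Klf2 and Klf4.

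Most endothelial genes had lower means in Total KO than in EC KO, and none passed. Of 36 members, 32 were lower in Total KO than in EC KO, with a median of -0.23 against 0.01 for all genes, but limma called none, beside 0.0385% of all genes. At an unadjusted p under 0.05, 13 members passed, beside 10.4% of all genes. edgeR called none and DESeq2 called 2, Cd93 and Pecam1, beside 4 and 70 of all genes. The 4 members of lowest adjusted p were Pecam1 (-0.40 ± 0.09, limma adjusted p = 0.151), Cd93 (-0.45 ± 0.10, limma adjusted p = 0.156), Cdh5 (-0.35 ± 0.10, limma adjusted p = 0.275) and Tek (-0.35 ± 0.10, limma adjusted p = 0.287). Ranges did not overlap with Total KO lower in 13 members, where 8.95% of all genes met this, and with Total KO higher in none, where 10.7% did.

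Total KO and CM KO differed in 4 members by limma's test, 1 higher and 3 lower, beside 8.2% of all genes in each direction (16.4% in all). At an unadjusted p under 0.05, 6 members passed, beside 30.5% of all genes. Ranges did not overlap with Total KO higher in 3 members (19.6% of all genes) and with Total KO lower in 4 (19.3%). Robo4 was higher in Total KO (0.27 ± 0.08, limma adjusted p = 0.0328). Cd34 (-0.63 ± 0.13, limma adjusted p = 0.00817), Plvap (-0.91 ± 0.24, limma adjusted p = 0.0231) and Vwf (-0.38 ± 0.12, limma adjusted p = 0.0458) were lower. Cd34 passed without each library in turn. Plvap was lost without CM KO replicate 1 (-0.85), CM KO replicate 3 (-0.85) or Total KO replicate 3 (-0.69), and Robo4 without CM KO replicate 2 (0.27), CM KO replicate 3 (0.25), Total KO replicate 1 (0.24) or Total KO replicate 3 (0.27). Vwf passed in 3 of the 11 fits that left out a library. Its call was lost without either Control library (-0.38 each), EC KO replicate 2 or 3 (-0.38 each), CM KO replicate 1 (-0.39) or 3 (-0.27), or Total KO replicate 1 (-0.37) or 3 (-0.31). The member median was 0.09 and changed sign with library totals (-0.047). Robo4 was also lost with library totals (0.14) and quantile normalization (0.23), and in the fit to the 2 groups alone and without the first library of each knockout group (0.27 each). Vwf was also lost in these last 2 fits and with no filter on low values (-0.38 each).

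**Figure D4:**
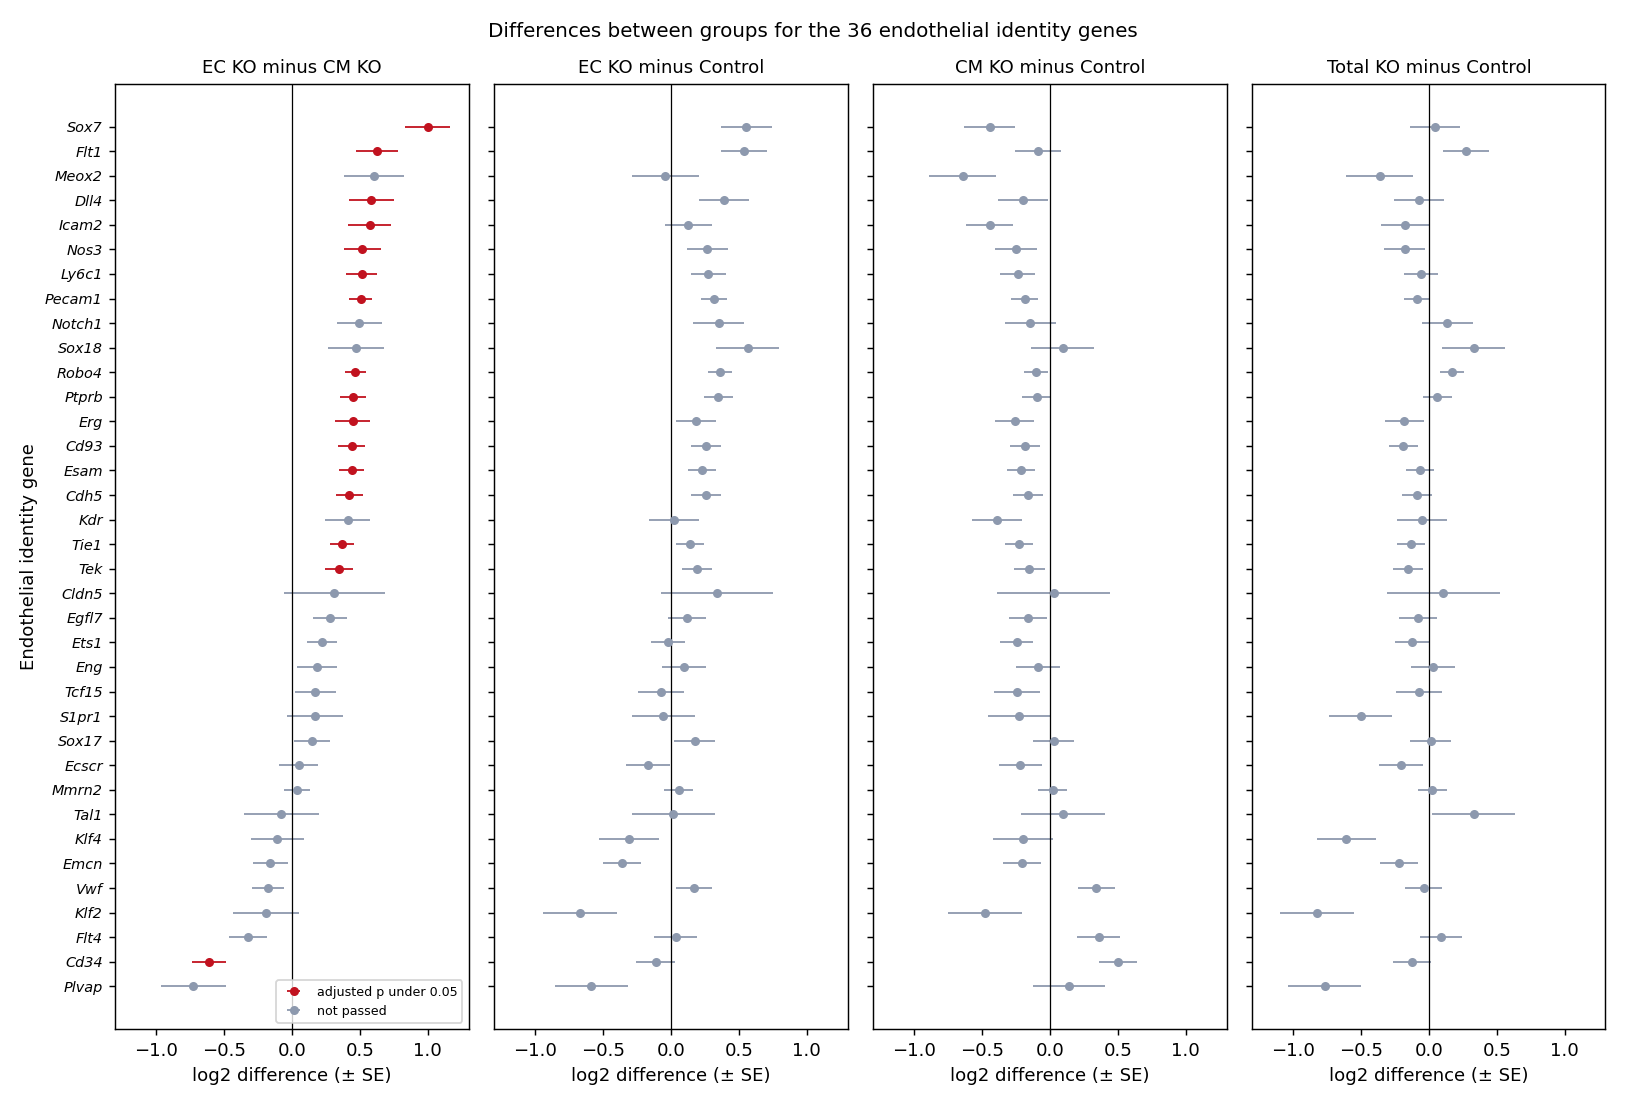
Log2 difference with its SE for each of the 36 members in the comparisons shown above each panel, with genes in one order and called members marked as in the key. In EC KO minus CM KO, 28 of 36 members lie above 0 and 16 were called, against 0 called in each comparison with Control.

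Over all 4 groups, limma's F test called 10 of 36 members, beside 14.3% of all genes: Flt1, Ptprb, Robo4, Pecam1, Cdh5, Esam, Cd34, Cd93, Ly6c1 and Sox7. Robo4 had the lowest adjusted p (0.0100). Tek did not pass (limma adjusted p = 0.0747). The count fell to 4 without the third replicate of CM KO or of Total KO, to 5 without EC KO replicate 2 and to 6 without CM KO replicate 2. The share of all genes that the F test called in those fits is not given here. The fall is therefore not read as particular to the members.

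Partners of the members in the same pathways were called between EC KO and CM KO in shares to be read against the 19.1% of all genes called (8.72% higher and 10.4% lower). Among 11 tested angiopoietin and VEGF ligands and partners, 2 were higher in EC KO and 1 was lower. Vegfa, the ligand of Flt1 and Kdr, was higher in EC KO (0.51 ± 0.14, limma adjusted p = 0.0228), as was Apln, the vascular peptide apelin (1.04 ± 0.22, limma adjusted p = 0.00814). Vegfd, a ligand of Flt4 listed under its older symbol Figf, was lower (-1.10 ± 0.29, limma adjusted p = 0.0195). Apln was also the 1 gene of this list that passed between CM KO and Control (-1.12 ± 0.25, limma adjusted p = 0.0251).

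Among 12 Notch partners, Hey1, a Notch target gene, was higher, relative to CM KO, in EC KO (0.84 ± 0.20, limma adjusted p = 0.0117) and Notch2 was lower (-0.39 ± 0.11, limma adjusted p = 0.0265). Notch2 was higher in CM KO than in Control (0.48 ± 0.12, limma adjusted p = 0.0411). Of 12 ETS and endothelial transcription partners, 3 were higher and 2 lower. Foxo1 (0.67 ± 0.12, limma adjusted p = 0.00393) and Epas1, the hypoxia factor HIF-2α (0.47 ± 0.11, limma adjusted p = 0.0134), were among the higher, and Lmo2 (-0.96 ± 0.14, limma adjusted p = 0.00112) and Lyl1 (-0.87 ± 0.18, limma adjusted p = 0.00737) were the lower. Lmo2 and Lyl1, factors that work with Tal1 in blood cells, were also higher in CM KO than in Control (0.74 ± 0.16 and 0.93 ± 0.20, limma adjusted p = 0.0220 and 0.0238). No gene of these lists passed against Control in EC KO or in Total KO by limma.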

How the data were processed

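Heart RNA of 11 mouse libraries was analysed in 4 groups taken from the labels, with replicate numbers in accession order. Per the submitters' processing notes, the tools were HTSeq 0.8.0, TopHat2 in an unnamed version and DESeq2 with 3.5 as its version, and the build was mm10. The counting mode, strand setting and annotation are not given in the sources used here. The deposited signal values are gene counts that the authors divided by 1 factor per library. All 257620 values (100.0%) came within 0.05 reads of whole reads, which were recovered, with 2268403 to 20105673 per library. Of 23420 genes, 4716 were at 0 in every library, and 2 symbols were repeated. Between libraries of a group, the chi-square per degree of freedom of the recovered reads was 2.87 to 54.1.

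Values were taken as log2(value + 1) for the 12976 genes of mean 10 or more, and fitted with limma 3.58.1 (R 4.3.3), 1 trended model over all 11 libraries with 6 contrasts and an F test, adjusted by Benjamini-Hochberg over all genes tested at 0.05. edgeR 4.0.16 (quasi-likelihood) on the recovered reads called 50, 1007, 14, 2423, 4 and 2410 genes for EC KO, CM KO and Total KO against Control, EC KO against CM KO, Total KO against EC KO and Total KO against CM KO. DESeq2 1.42.0 was an alternative, as were pseudocounts, filters, library totals, quantile normalization, library weights, a 2-group fit and leaving out libraries. The steps were tested on simulated data. Promoters come from RefSeq and gene positions and exons from GENCODE M21 on GRCm38, the genome build also called mm10.

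Named by rule were Tek, each member that passed in a comparison or the F test, genes of other lists that passed (at most 4 per list and comparison), and Cd36. Macrophage and leukocyte, fibroblast and cardiomyocyte genes that passed were an exception and are given only as counts. Other members named with values were chosen after these were seen. The members and lists were chosen with earlier results of these data known. Marker lists had 1 gene in common with the members for heart capillary genes (Tcf15) and 1 for endocardium (Plvap). Of 2 megakaryocyte and platelet genes tested, 1 passed between EC KO and CM KO, and of 2 erythroid genes tested none passed by limma, with none at an unadjusted p under 0.05.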

Additional observations from a re-analysis of the deposited data

How the results depend on the processing

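No called result changed sign under the 22 alternatives. The median of members in Total KO minus CM KO, 0.09, read -0.047 with library totals. No paired analysis was possible because the labels tie no library to one in a different group. The larger moves in the number of members called were these. With DESeq2, 1 was called in EC KO minus Control, 1 in CM KO minus Control and 2 in Total KO minus EC KO, and with edgeR 1 in CM KO minus Control, where limma called none. Library totals left 10 in EC KO minus CM KO, where 2728 of all genes were called. Library weights gave 22 in EC KO minus CM KO (16 in the reported fit) and 2 in Total KO minus EC KO. They also gave 8 in Total KO minus CM KO and 21 in the F test. Over all genes, library weights called 3442, 116 and 3553 in the pairwise comparisons, in that order, and the reported fit 2479, 5 and 2128. In the F test (10 in the reported fit), quantile normalization gave 6, library totals 7 and DESeq2 15. The 2-group fit gave 2 in Total KO minus CM KO, where it called 1969 of all genes. Without the 3 first knockout libraries together, 2 were called in Total KO minus Control (Klf4 and S1pr1) and 2 in Total KO minus CM KO. Over all genes, 72 and 917 were called there, against 11 and 2128 in the reported fit. Medians of members became -0.10 in CM KO minus Control, -0.13 in Total KO minus Control and 0.23 in EC KO minus CM KO with library totals, 0.44 in EC KO minus CM KO and -0.30 in Total KO minus EC KO with library weights, and -0.30 in the latter without the 3 libraries. Leaving out each library gave 0 to 1 members called in CM KO minus Control, 9 to 17 in EC KO minus CM KO, 1 to 5 in Total KO minus CM KO and 4 to 11 in the F test, and 0 in the other comparisons. The medians then ran from 0.12 to 0.22 in EC KO minus Control, from -0.20 to -0.13 in CM KO minus Control, from -0.11 to -0.05 in Total KO minus Control, from 0.31 to 0.42 in EC KO minus CM KO, from -0.27 to -0.21 in Total KO minus EC KO and from 0.07 to 0.12 in Total KO minus CM KO. With library totals the split of all genes called, higher and lower, went from 22 and 19 to 15 and 23 in EC KO minus Control, from 427 and 312 to 568 and 237 in CM KO minus Control, from 8 and 3 to 11 and 15 in Total KO minus Control, and from 1064 and 1064 to 547 and 1750 in Total KO minus CM KO. Apart from what the library totals themselves rescale, the cause of these changes was not tested. DESeq2 called 162, 1276, 100, 2477, 70 and 2524 genes in the comparisons in the order given for edgeR. Without EC KO replicate 1, the library of fewest reads, 12 of all genes were called in EC KO minus Control (41 with it). Without EC KO replicate 2 the count was 7 and without replicate 3 it was 31, so the fall was not particular to the library of fewest reads. Leaving out each knockout library in turn, 366 to 999 of all genes were called in CM KO minus Control. The counts were 1455 to 2582 in EC KO minus CM KO and 1036 to 2272 in Total KO minus CM KO. In CM KO minus Control the fit to the 2 groups alone called 63 of all genes, against 739 in the reported fit. Leaving out a Control library leaves 1 in that group, and the all-gene counts of those fits are not given here. How far the calls in CM KO minus Control rest on a single Control library is thus not shown by these ranges. For the F test, the all-gene counts of the alternative fits are not given here.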

Other observations

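A list of 9 heart capillary genes, only some of them of lipid handling, shares Tcf15 with the 36 endothelial genes. Between EC KO and CM KO, 4 of the 9 differed by limma's test (3 higher and 1 lower). Of all genes, 19.1% were called (8.72% higher and 10.4% lower). Gpihbp1, which anchors lipoprotein lipase on the capillary wall (0.65 ± 0.12, limma adjusted p = 0.00356), Car4, a carbonic anhydrase of heart capillaries (0.85 ± 0.15, limma adjusted p = 0.00310), and Aqp1, the water channel of capillaries (1.20 ± 0.21, limma adjusted p = 0.00310), were higher in EC KO. Meox1 was lower (-1.27 ± 0.27, limma adjusted p = 0.00720). The marker Vcam1, induced when endothelium is activated, was the 1 of 8 activation genes that passed, lower in EC KO (-0.71 ± 0.15, limma adjusted p = 0.00722). Among 5 lymphatic markers Pdpn alone passed, also lower (-1.16 ± 0.29, limma adjusted p = 0.0151), and 0 of 7 endocardial markers did by limma, with 4 of the 7 under an unadjusted p of 0.05.

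Of 12 pericyte and smooth muscle genes, which mark the mural cells that wrap the vessels, 3 were higher and 2 lower in EC KO than in CM KO, beside the same 19.1%. Rgs5, a pericyte marker, was higher in EC KO, relative to CM KO (0.63 ± 0.09, limma adjusted p = 0.000981), as was Kcnj8, a pericyte potassium channel (0.46 ± 0.09, limma adjusted p = 0.00626). Acta2, smooth muscle actin, was lower (-1.37 ± 0.21, limma adjusted p = 0.00162), as was Cspg4, a pericyte proteoglycan (-0.79 ± 0.15, limma adjusted p = 0.00419). Of 10 cardiomyocyte markers, 3 were higher and 0 lower in EC KO than in CM KO. Of 12 macrophage and leukocyte markers all 12 were lower in EC KO than in CM KO by limma's test, and 9 of 10 fibroblast markers were. Pf4, expressed by platelets and some macrophages, was lower too (-1.55 ± 0.16, limma adjusted p = 0.000259). Against Control, Acta2 (1.49 ± 0.24, limma adjusted p = 0.00788) and Pf4 (1.04 ± 0.18, limma adjusted p = 0.0123) were higher in CM KO. Rgs5 (-0.42 ± 0.10, limma adjusted p = 0.0290) and Kcnj8 (-0.44 ± 0.11, limma adjusted p = 0.0329) were lower. Also higher there were 10 of the 12 macrophage and 6 of the 10 fibroblast markers. Of all genes, 3.29% were called higher and 2.4% lower. No gene of these lists passed in EC KO or Total KO against Control.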
